A study of Mus musculus with 6 samples.

Results

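Genes of cholesterol and fatty acid synthesis were examined in mouse leukaemia cells with and without a recombinase directed at the Sprouty genes Spry1 and Spry2. The set holds 31 listed genes that are regulated by sterol regulatory element-binding proteins (SREBPs), and probes naming a single gene measured 30 of them among 19938 genes in all. The members were chosen by name: 18 enzymes of the sterol branch (17 measured; Acat2 was not analysed here), 5 regulators and transport genes, and 8 genes of fatty acid synthesis. A gene with several probes was represented by its brightest.

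The cells were BCR-ABL1-transformed pre-B cells of the FvB/N strain, which serve as a mouse counterpart of human acute lymphoblastic leukaemia driven by the same fusion kinase. All carried loxP-flanked alleles of both Sprouty genes (SPRY1/2 fl/fl), had been selected with puromycin, and had received 0.5 µM 4-hydroxytamoxifen for 2 days. Control cells carried the PMIP-ERT2 vector, which has the tamoxifen-binding ERT2 domain without a recombinase (3 arrays). Cre-ERT2 cells carried PMIP-CRE-ERT2, which encodes the tamoxifen-inducible recombinase (3 arrays). Cells with the recombinase but with intact Sprouty alleles that cannot recombine were not analysed here, so an effect of Cre itself and of Sprouty loss cannot be told apart. Whether arrays within a group represent independent cultures, and whether the cells were clones, is not stated in the labels, so the p-values rest on the spread between these 6 arrays alone, which may be technical.

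Cholesterol is built from acetyl-CoA through mevalonate, isoprenoid diphosphates, squalene and lanosterol. Fatty acids are built from the same acetyl-CoA by carboxylation, chain synthesis, elongation and desaturation. SREBPs are held in the endoplasmic reticulum by INSIG proteins when sterols are plentiful and move to the Golgi for cleavage when sterols are scarce. The product of Srebf2 acts mainly on sterol genes, and products of Srebf1 act on fatty acid genes as well. Dividing leukaemia cells draw on both branches for membranes.

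Expression is given as deposited log2 values, which allow a gene to be compared between arrays but not with another gene. Signal of Spry1 in Cre-ERT2 arrays was 55.7% of control and that of Spry2 was 47.8% (limma adjusted p = 0.00462 and 0.00162), and whether these probes lie in the deleted part was not tested. Median signals of the 6 arrays lay between 7.73 and 7.81. Control 1 stood apart: its mean over all genes was 0.06 above the control mean, where the other 5 arrays lay at -0.03, and it had the lowest array weight (0.322). All 9 measured B lineage markers were at 9.41 or above in every array, against lower quartiles of the arrays of 6.46 to 6.55, and their mean lay between 12.79 and 12.89. The 15 measured of 16 mast cell markers had a mean of 7.59 to 8.06 in the controls against 8.27 to 9.28 in Cre-ERT2 arrays. All 15 had positive differences, and the 3 protease genes Mcpt2, Tpsab1 and Tpsb2 rose at an adjusted p under 0.05. Other marker lists held 10 myeloid, 6 T cell, 9 B lineage and 1 erythroid gene. Of these, 0 passed by limma, 4 had an unadjusted p under 0.05, and the groups of 6 did not overlap. Over all genes, 12.8% were lower and 5.24% higher at an unadjusted p under 0.05. Groups did not overlap for 18.2% of all genes with Cre-ERT2 lower and for 6.59% with Cre-ERT2 higher. The myeloid lysozyme gene Lyz2 was 1.07 higher (95% interval 0.51 to 1.63; limma adjusted p = 0.0651) and the myeloid integrin gene Itgam 0.21 higher (limma adjusted p = 0.15). The recombinase gene Rag1 of lymphocyte precursors differed by -0.31 (95% interval -0.53 to -0.09; limma adjusted p = 0.138), or 80.8% of control, and the T cell gene Cd4 by -0.22. The B lineage genes Ebf1 and Cd24a were 0.07 and 0.10 higher. The part of these other lists in the results was not tested. In bulk RNA, fewer cells of a type and less RNA per cell cannot be told apart.

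Scd1 fell in Cre-ERT2 cells and was the only member of the set to pass an adjusted p of 0.05. It encodes stearoyl-CoA desaturase, which places a double bond into saturated fatty acyl chains and so makes oleate and palmitoleate. Its log2 values were 11.20, 11.24 and 11.07 in control 1, 2 and 3, against 10.53, 10.45 and 10.53 in Cre-ERT2 1, 2 and 3. The groups did not overlap, with a gap of 0.53 between the lowest control and the highest Cre-ERT2 array. The log2 difference was -0.66 ± 0.06 (SE, n = 3 per group; limma adjusted p = 0.00257). Expressed as signal, 63.2% of the control level remained (95% interval 57.3% to 69.6%). It ranked 20 of 19938 genes by p. Of all genes, 159 rose and 223 fell; these counts were 314 and 692 after arrays were centred on their medians and 369 and 334 after repeated quantile normalization. Across all genes, 1.92% passed in either direction and 1.12% passed as lower (3.02% and 1.78% of the 11963 genes left after the dimmest 40% were removed), so 1 member in 30 is near the background as a count. The exact two-sided permutation p was 0.1, the smallest that 3 arrays against 3 allow.

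The Scd1 difference moved little with the arrays used. Without 1 array in turn it lay between -0.63 and -0.71, with limma adjusted p-values of 0.00814 to 0.0189. Mast cell marker means were higher in every Cre-ERT2 array than in every control array, so a fit separates marker level and group poorly. In Cre-ERT2 1, 2 and 3 these means were 9.28, 8.27 and 8.67, and Scd1 was at 10.53, 10.45 and 10.53. A cause was not tested. When the mean of the mast cell markers entered the fit as a covariate, the Scd1 difference was -0.71 ± 0.11 (SE; limma adjusted p = 0.036). Without variance moderation, where 0 of all genes passed, its adjusted p was 0.105.

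Scd2, the neighbouring desaturase gene of the same family, was at 12.69, 12.76 and 12.73 in the controls against 12.39, 12.57 and 12.50 in Cre-ERT2 arrays. Its groups did not overlap, but the difference of -0.24 ± 0.06 (SE) missed the threshold (limma adjusted p = 0.0843). It was -0.08 ± 0.09 (SE) with the mast cell covariate. Whether the probes of Scd1 and Scd2 share sequence was not tested.

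**Figure D1:**
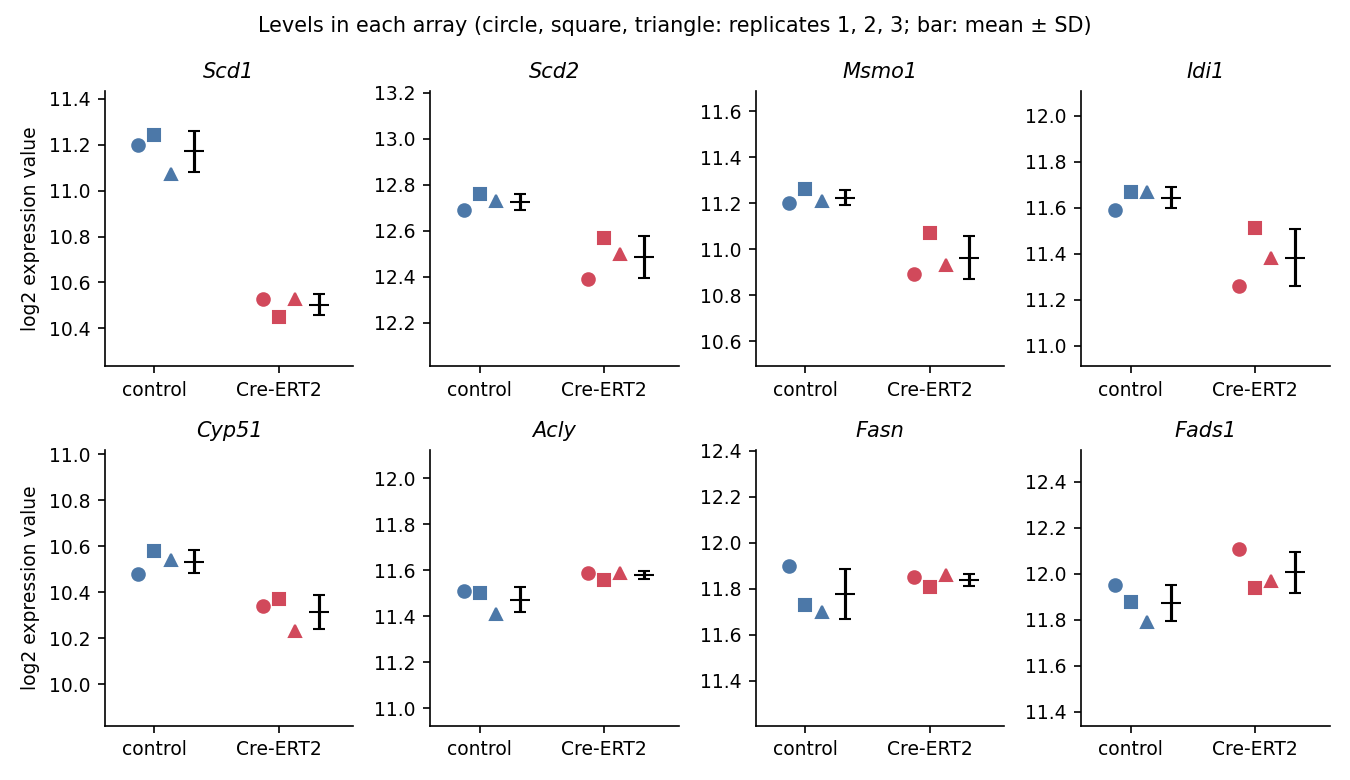
Log2 expression (vertical axes, each spanning 1.2 log2 units) of 8 members in the 3 control (blue) and 3 Cre-ERT2 (red) arrays, with mean ± SD beside each group. Scd1 is separated by 0.53 between groups, Scd2, Msmo1, Idi1 and Cyp51 by 0.08 to 0.13 in the same direction, and Acly by 0.06 in the opposite direction, while the groups of Fasn and Fads1 overlap.

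The other 7 genes of fatty acid synthesis were split in direction, 3 being lower like Scd1 (Scd2, Acaca and Elovl6) and 4 higher. Of all 8 members, 4 had negative and 4 had positive differences, with a median of 0.01 against -0.03 over all genes. Without Scd1 the median of the other 7 was 0.07, and 0 of them passed (1 at an unadjusted p under 0.05, Scd2). Acly, which cleaves citrate into cytosolic acetyl-CoA, was at 11.51, 11.50 and 11.41 in the controls against 11.59, 11.56 and 11.59 in Cre-ERT2 arrays. It was the only member higher in every Cre-ERT2 array than in every control array, as were 6.59% of all genes, and its difference was 0.11 ± 0.05 (SE; limma adjusted p = 0.328). Fasn, the fatty acid synthase that assembles palmitate, differed by 0.07 (95% interval -0.08 to 0.21). Its control 1 value of 11.90 was the highest of the 6 arrays, and the other 2 controls were at 11.73 and 11.70, below the Cre-ERT2 values of 11.81 to 11.86.

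Acaca, the carboxylase that makes malonyl-CoA, had a difference of -0.13 (95% interval -0.27 to 0.01). Its second, dimmer probe gave -0.06 ± 0.08 (SE). Elovl6, which elongates palmitate, lay within 13.05 to 13.06 in the controls against 12.99 to 13.01 in Cre-ERT2 arrays. The groups did not overlap, and the difference was -0.05 ± 0.05 (SE; 95% interval -0.16 to 0.06). The SE is the moderated one, which draws on the spread of all genes, and was 0.006 without moderation (adjusted p = 0.11 by limma's unmoderated fit). Fads1 and Fads2, neighbouring desaturase genes that act on polyunsaturated fatty acids, differed by 0.13 ± 0.07 (SE) each, with overlapping groups and limma adjusted p-values of 0.333 and 0.364. With the mast cell covariate Fasn and Fads1 turned to -0.02 and -0.01.

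In the sterol branch every measured enzyme had a lower mean in Cre-ERT2 arrays, yet 0 of 17 passed by limma after adjustment. Differences ran from -0.26 to -0.04 with a median of -0.13, and 63.1% of all genes had a negative difference. At an unadjusted p under 0.05, 6 of the 17 were lower and 0 were higher, against 12.8% of all genes lower and 5.24% higher. Groups did not overlap, with Cre-ERT2 lower, for 9 of the 17 and for 18.2% of all genes. Without the dimmest 40% of genes, 64.2% of differences were negative, 17.8% of genes were lower and 7.16% higher at an unadjusted p under 0.05, and 24.8% had groups that did not overlap with Cre-ERT2 lower.

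The early steps, which make mevalonate and turn it into the isoprenoid unit, had differences between -0.11 and -0.26. Hmgcs1, the synthase that starts the branch, was at -0.11 (95% interval -0.26 to 0.03). The kinases Mvk and Pmvk were at -0.14 and -0.12, and the decarboxylase Mvd was at -0.14. Groups of Mvk and Mvd overlapped, with 95% intervals of -0.30 to 0.03 and -0.36 to 0.08. Without control 1, Mvk was at -0.07 and Mvd at -0.02, while Pmvk was at -0.15. Idi1, the isomerase of the isoprenoid unit, was at 11.59, 11.67 and 11.67 in the controls against 11.26, 11.51 and 11.38 in Cre-ERT2 arrays. All Cre-ERT2 values of Idi1 lay below control, with a difference of -0.26 ± 0.07 (SE; limma adjusted p = 0.0984), and its second probe also gave -0.26. Fdps, which joins isoprenoid units into farnesyl diphosphate, was at 11.58, 11.47 and 11.36 in the controls against 11.21, 11.29 and 11.21 in Cre-ERT2 arrays. Its groups were separated by 0.07, with a difference of -0.23 ± 0.07 (SE; limma adjusted p = 0.108).

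The squalene and lanosterol steps followed. Fdft1, the squalene synthase, was at -0.12 ± 0.07 (SE), with -0.18 from its dimmer probe. Sqle, the squalene epoxidase, was at 11.29, 11.31 and 11.25 in the controls against 11.12, 11.16 and 11.07 in Cre-ERT2 arrays, a difference of -0.17 ± 0.05 (SE; limma adjusted p = 0.14). The lanosterol synthase gene Lss had a smaller difference of -0.09 with groups that did not overlap. Cyp51, the lanosterol demethylase, was at 10.48, 10.58 and 10.54 in the controls against 10.34, 10.37 and 10.23 in Cre-ERT2 arrays. Its difference was -0.22 ± 0.06 (SE; limma adjusted p = 0.0934). Msmo1, which oxidises the methyl groups next removed from the ring, had the lowest p of the branch. Its values were 11.20, 11.26 and 11.21 in the controls against 10.89, 11.07 and 10.93 in Cre-ERT2 arrays, all Cre-ERT2 values lying below control. The difference was -0.26 (95% interval -0.40 to -0.12; limma adjusted p = 0.0665), or 83.4% of the control signal.

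Of the late enzymes, the decarboxylating dehydrogenase Nsdhl was at 11.19, 11.36 and 11.23 in the controls against 11.08, 11.09 and 11.08 in Cre-ERT2 arrays. Its difference of -0.18 ± 0.06 (SE) did not pass (limma adjusted p = 0.152). The isomerase Ebp (-0.09) and the desaturase Sc5d (-0.13) had intervals that held 0. The reductases Tm7sf2 (-0.06), Hsd17b7 (-0.06) and Dhcr7 (-0.04) had the smallest differences and overlapping groups. Each of these last 3 turned positive when 1 array was left out, at 0.001 for Tm7sf2 and 0.01 for Hsd17b7 without control 1, and at 0.03 and 0.04 for Dhcr7 without control 2 and Cre-ERT2 1.

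**Figure D2:**
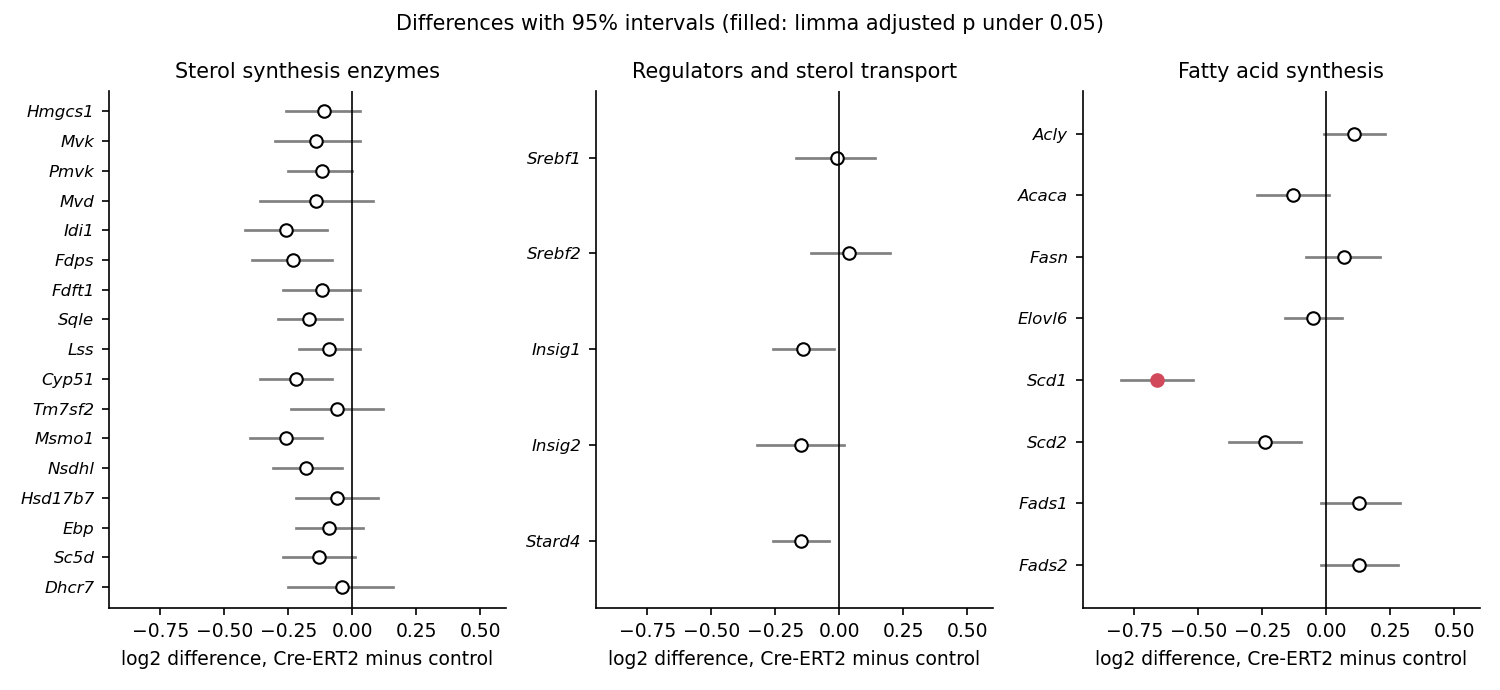
Log2 difference (Cre-ERT2 minus control, horizontal axes) of the 30 measured members with 95% intervals, in pathway order within 3 groups; filled points passed a limma adjusted p of 0.05. All 17 sterol enzymes lie left of 0, between -0.26 and -0.04, and Scd1 at -0.66 is the only filled point.

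The arrays of a group were not alike in the sterol branch. Averaged over the 17 enzymes, the deviations from the control mean were 0.04, 0.02 and -0.05 for control 1, 2 and 3, against -0.19, -0.09 and -0.14 for Cre-ERT2 1, 2 and 3. Among Cre-ERT2 arrays, Cre-ERT2 1 was the lowest for 11 enzymes, Cre-ERT2 3 for 6 and Cre-ERT2 2 for 0. The mast cell marker means of Cre-ERT2 1, 3 and 2 were 9.28, 8.67 and 8.27, the reverse order of their sterol deviations. Control 1 had both the highest sterol deviation of the controls (0.04) and their highest marker mean (8.06). Control 2 and 3, at sterol deviations of 0.02 and -0.05, had marker means of 7.59 and 7.82. With this mean as a covariate, the median of the 17 enzymes was -0.07 and that of all genes -0.06, and 14 of the 17 differences stayed negative. Without both arrays numbered 1, the enzyme median was -0.08, and again 14 were negative. For single enzymes the covariate gave -0.12 for Msmo1, -0.17 for Cyp51 and -0.04 for Idi1. In the same order the SEs were 0.097, 0.109 and 0.096, against 0.061, 0.060 and 0.071 in the main fit. Marker means were higher in every Cre-ERT2 array than in every control array, so the covariate largely follows group. A part of mast cells in the sterol differences was not tested. In the fatty acid group without Scd1, the deviations were 0.01, -0.01 and 0.01 in the Cre-ERT2 arrays, within the control range of -0.05 to 0.06.

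**Figure D3:**
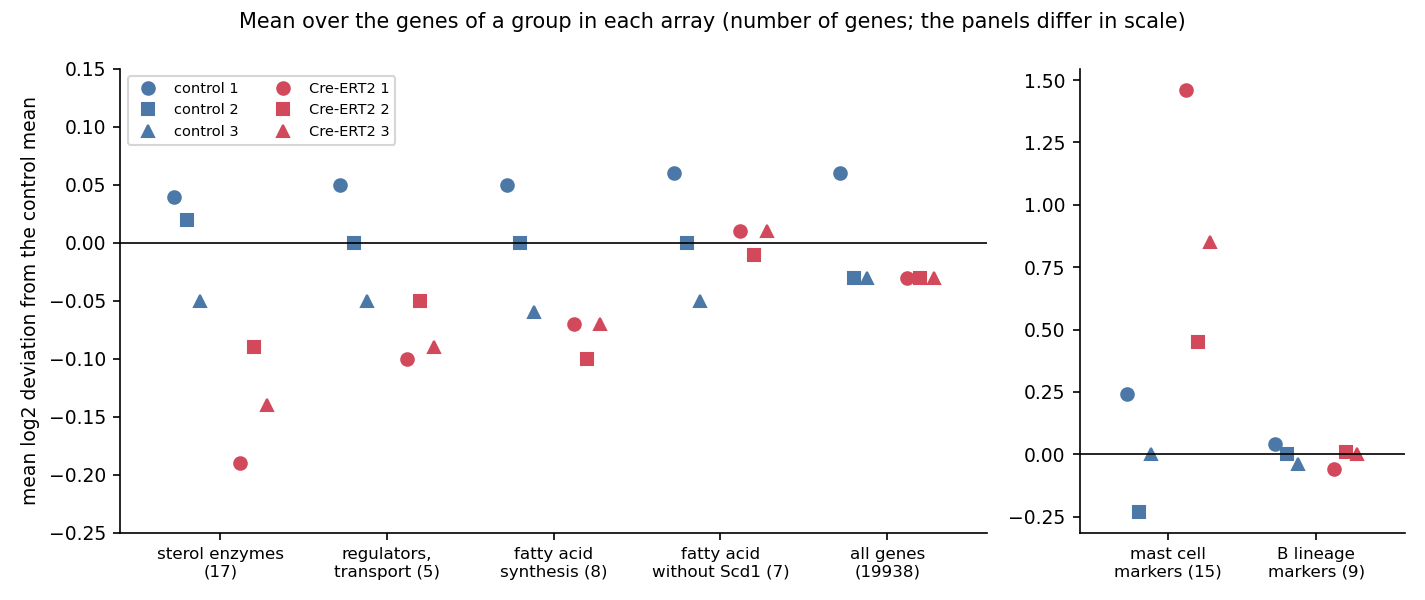
Mean log2 deviation from each gene's control mean (vertical axes, different scales) in every array, for 4 groupings of the members and all genes (left) and for mast cell and B lineage markers (right). The sterol enzymes lie at -0.19 to -0.09 in Cre-ERT2 arrays, the fatty acid genes without Scd1 at -0.01 to 0.01, and the mast cell markers at 0.45 to 1.46.

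The genes of the 2 transcription factors differed little. Srebf1 was at 10.09, 9.95 and 9.85 in the controls against 9.92, 9.96 and 9.98 in Cre-ERT2 arrays, a difference of -0.01 (95% interval -0.17 to 0.14). Srebf2 was at 11.43, 11.37 and 11.26 in the controls against 11.29, 11.44 and 11.46 in Cre-ERT2 arrays, a difference of 0.04 (95% interval -0.11 to 0.20). These values measure transcripts, and SREBP activity is set largely by cleavage of the protein, which the arrays do not measure.

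The other regulators and the transport gene had negative differences that did not pass. Insig1, itself a target of SREBPs that retains them in the endoplasmic reticulum, was at 10.80, 10.90 and 10.90 in the controls against 10.73, 10.76 and 10.71 in Cre-ERT2 arrays. The groups were separated by 0.05, and the difference was -0.14 ± 0.05 (SE; limma adjusted p = 0.219). Insig2, a related retention protein whose gene responds less to sterols, was at -0.15 ± 0.07 (SE; limma adjusted p = 0.33). Stard4, a carrier of cholesterol between membranes, had closely grouped values, at 10.84, 10.83 and 10.81 in the controls against 10.67, 10.68 and 10.68 in Cre-ERT2 arrays. Its groups were separated by 0.13, with a difference of -0.15 (95% interval -0.26 to -0.04; limma adjusted p = 0.143).

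Upstream sequences were examined for letters shared by members. RefSeq windows (GRCm38.p6) covering the 250 bases before a gene start were available for 24 of the 31 members, as 31 windows because some genes have several starts. The motifs were CCAAT (the box bound by NF-Y), GGGCGG (a GC box bound by Sp1), CACGTG (an E-box) and TCACNCCAC (a form of the sterol regulatory element), each searched on both strands. CCAAT or its complement was found for 14 of 15 sterol enzymes, Acat2 being the exception, for 4 of 4 regulators and for 1 of 5 fatty acid genes, Fasn. Counted likewise by gene, with a match in any window, it was found for 10133 of all 27025 genes with windows. It lay in 64.5% of the member windows and in 33.8% of all 32851 windows. A GC box was in 74.2% of member windows and 32.7% of all, and an E-box in 12.9% and 6.02%. The sterol element in this form was in 1 member window, that of Hmgcs1, at position -137 relative to the gene start, and in 1.05% of all windows. These matches describe letters and not binding, and base composition was not matched between members and other genes. Members were listed as genes regulated by SREBPs, so shared letters may reflect that choice. A link between the letters and the differences was not tested.

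The windows of the 3 enzymes with the lowest p, of Insig1, and of Hmgcs1 for its sterol element are shown 5′ to 3′ on the gene's strand. Capitals mark CCAAT (or ATTGG, its complement), the E-box and the sterol element, and GC boxes are left in lower case.
Msmo1 (chr8:64733579-64733828, minus strand): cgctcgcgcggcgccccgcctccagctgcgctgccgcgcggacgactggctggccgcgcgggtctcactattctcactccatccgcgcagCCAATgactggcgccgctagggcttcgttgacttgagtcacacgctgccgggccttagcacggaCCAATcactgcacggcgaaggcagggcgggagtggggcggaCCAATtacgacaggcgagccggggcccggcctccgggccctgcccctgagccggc
Cyp51 (chr5:4104698-4104947, minus strand): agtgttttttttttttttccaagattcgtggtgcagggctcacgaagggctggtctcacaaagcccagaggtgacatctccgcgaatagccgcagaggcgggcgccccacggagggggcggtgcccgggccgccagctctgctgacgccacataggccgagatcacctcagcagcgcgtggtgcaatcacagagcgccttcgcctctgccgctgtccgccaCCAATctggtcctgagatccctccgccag
Idi1 (chr13:8885356-8885605, plus strand): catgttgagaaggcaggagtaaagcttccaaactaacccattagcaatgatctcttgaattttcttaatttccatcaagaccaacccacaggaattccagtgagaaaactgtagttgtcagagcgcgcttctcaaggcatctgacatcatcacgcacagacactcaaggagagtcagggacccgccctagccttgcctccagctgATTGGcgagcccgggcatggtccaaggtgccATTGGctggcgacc
Insig1 (chr5:28071162-28071411, plus strand): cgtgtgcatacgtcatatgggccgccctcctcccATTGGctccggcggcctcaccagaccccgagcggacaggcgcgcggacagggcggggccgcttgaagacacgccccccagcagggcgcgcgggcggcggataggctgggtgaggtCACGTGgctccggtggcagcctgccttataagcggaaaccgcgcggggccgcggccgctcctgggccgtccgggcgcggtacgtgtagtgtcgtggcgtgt
Hmgcs1 (chr13:119690101-119690350, plus strand): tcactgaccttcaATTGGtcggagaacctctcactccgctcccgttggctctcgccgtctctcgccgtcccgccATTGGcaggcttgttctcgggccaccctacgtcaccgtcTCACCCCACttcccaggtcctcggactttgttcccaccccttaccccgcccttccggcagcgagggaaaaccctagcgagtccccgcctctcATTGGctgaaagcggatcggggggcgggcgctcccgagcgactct
Msmo1 and Hmgcs1 held 3 CCAAT boxes each, Idi1 held 2, and Cyp51 and Insig1 held 1 each. Insig1 held the only E-box among these windows.

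Further genes of the pathways were read from a list of 49, of which 38 were measured. In this list 4 genes rose and 1 fell by limma at an adjusted p under 0.05, where 0.797% of all genes rose and 1.12% fell. All 5 belong to the 18 measured genes of fatty acid supply and desaturation, and 0 of the other 20 passed.

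Acss2, Slc25a1 and Acsl4 were 3 of the 4 that rose. Acss2, which makes acetyl-CoA from acetate, was at 7.86, 8.02 and 7.82 in the controls against 8.31, 8.17 and 8.25 in Cre-ERT2 arrays, a difference of 0.34 ± 0.07 (SE; limma adjusted p = 0.0488). Slc25a1, the mitochondrial carrier that exports citrate, was at 12.77, 12.79 and 12.70 in the controls against 12.96, 13.07 and 13.08 in Cre-ERT2 arrays, a difference of 0.28 ± 0.06 (SE; limma adjusted p = 0.0494). Acsl4, which activates arachidonate and other polyunsaturated fatty acids, was at 11.13, 11.14 and 11.20 in the controls against 11.40, 11.43 and 11.40 in Cre-ERT2 arrays, a difference of 0.26 ± 0.05 (SE; limma adjusted p = 0.0473). In each case every Cre-ERT2 array exceeded every control array, by 0.15 to 0.20.

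The fourth that rose was Fads3, the third gene of the desaturase cluster that holds Fads1 and Fads2. It was at 8.35, 8.24 and 8.23 in the controls against 8.64, 8.69 and 8.74 in Cre-ERT2 arrays, a difference of 0.42 ± 0.06 (SE; limma adjusted p = 0.016), or 1.34-fold. Gpam fell. It encodes the mitochondrial acyltransferase that starts glycerolipid synthesis. Its values were 11.59, 11.52 and 11.39 in the controls against 11.10, 11.09 and 11.10 in Cre-ERT2 arrays, a difference of -0.40 ± 0.06 (SE; limma adjusted p = 0.025), or 75.8% of the control signal. Lpin1, a phosphatidate phosphatase, had the next lowest p, with a difference of 0.31 ± 0.07 (SE; limma adjusted p = 0.0565).

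These 5 calls were less stable than that of Scd1. Acss2, Slc25a1 and Acsl4 each missed the threshold without any 1 of the 6 arrays. Their differences in these fits stayed positive, at 0.30 to 0.40, 0.25 to 0.32 and 0.24 to 0.28. Fads3 missed it without control 2 (limma adjusted p = 0.0695), control 3 (limma adjusted p = 0.0861) or Cre-ERT2 3 (limma adjusted p = 0.11), and Gpam missed it without control 2 or any 1 Cre-ERT2 array (limma adjusted p = 0.0588 to 0.138). With the mast cell covariate the differences were 0.30, 0.37, 0.28, 0.43 and -0.43 for Acss2, Slc25a1, Acsl4, Fads3 and Gpam, and 0 of the 5 passed. In the same order the SEs were 0.124, 0.101, 0.097, 0.108 and 0.115, against 0.070, 0.057, 0.051, 0.058 and 0.063 in the main fit. Every Cre-ERT2 array exceeded every control array in the marker mean, so the covariate largely follows group.

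Among the sterol genes of this list, Ggps1, which extends farnesyl diphosphate, was at -0.18 ± 0.07 (SE) and Npc1, which exports cholesterol from lysosomes, at 0.21 ± 0.07 (SE). The SREBP escort gene Scap (0.06) and the protease gene Mbtps1 (0.03), which serve SREBP cleavage, had intervals that held 0. Of 6 genes of the oxysterol receptor LXR and sterol efflux, 3 were positive and 3 negative, with the transporter Abcg1 at 0.15 and the receptor-degrading ligase Mylip at -0.22. None of these passed.

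**Figure D4:**
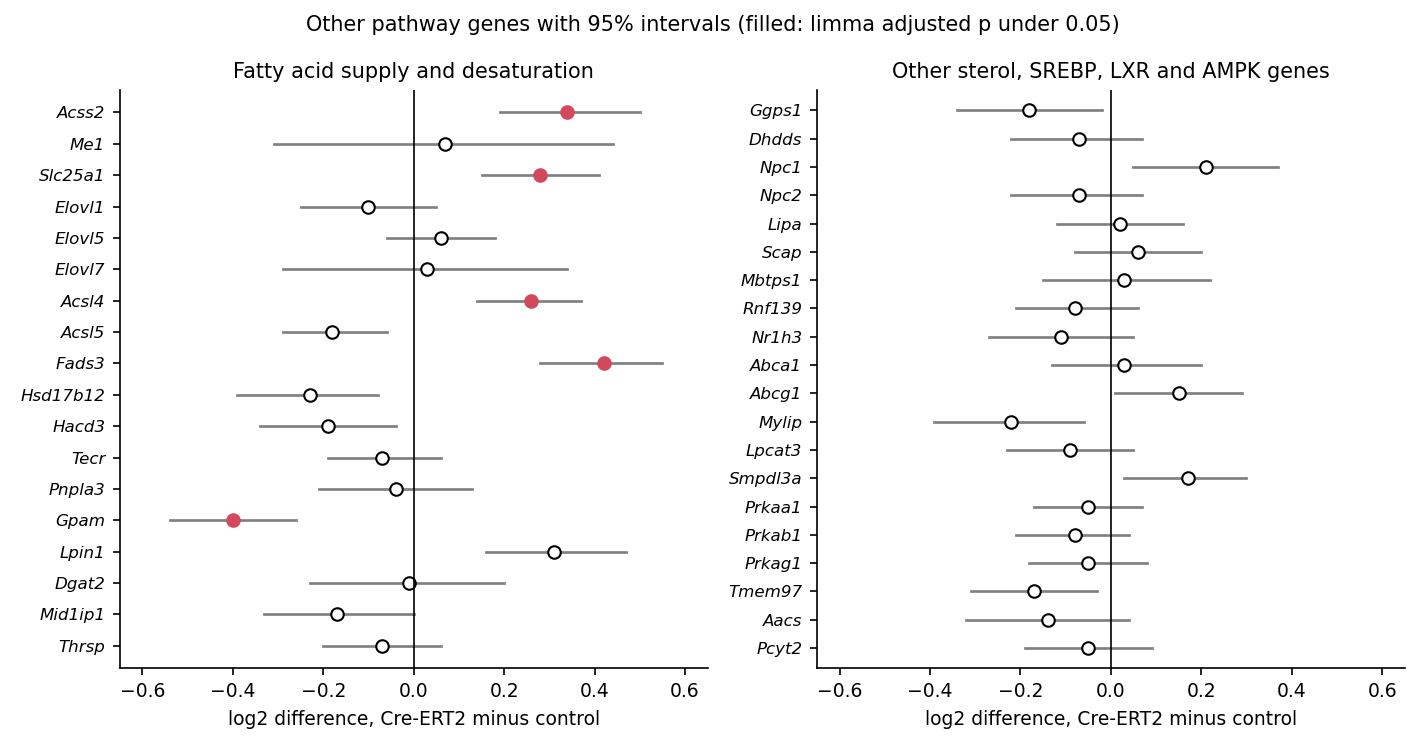
Log2 difference (Cre-ERT2 minus control, horizontal axes) with 95% intervals for the 38 other measured pathway genes; filled points passed a limma adjusted p of 0.05. Acss2, Slc25a1, Acsl4 and Fads3 are filled at 0.26 to 0.42 and Gpam at -0.40, all in the fatty acid panel, while the 20 genes on the right are open.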

How the data were processed

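Total RNA of 6 samples was biotin-labelled for Affymetrix arrays, per the labels' protocols. The authors deposited log2 expression values (2.47 to 14.81) for 35556 probes. The submitters' processing notes name RMA and Partek 6.5 without saying what each did. Probe filters, background settings and the build: not given in the sources used here. Precision is limited by the number of arrays. RMA commonly brings arrays to like distributions, which would reduce a change shared by most genes.

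Values were used without further scaling. Probes naming 1 gene in the platform annotation (21789) were kept, and the brightest probe stood for a gene. Groups came from the sample titles. A linear model (limma 3.58.1, R 4.3.3, lmFit then eBayes) was fitted over 19938 genes, with Benjamini-Hochberg adjustment over all of them, and the fit was tested on simulated data. Differences are Cre-ERT2 minus control. The named genes are all members, the floxed genes, and other pathway genes past the threshold or among the 6 with the lowest p. Remaining named genes were chosen after their values were seen. Promoters are shown for members with the lowest p and a RefSeq entry in the sterol and regulator groups, and for Hmgcs1 after its match was seen. None is shown for the fatty acid group. Members and lists were chosen with earlier results of these data known, so groups of members are described by counts and medians without a set test. The other lists of cell markers gave no called gene, though single members differed by up to 1.07 (Lyz2): B lineage (median 0.02 over 9 genes), T cells (0.02 over 6), other myeloid cells (0.02 over 10) and erythroid cells (1 gene, -0.10). Alternatives changed the probe rule, the filter, the scaling, the variance model, the covariates, the arrays and the threshold.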

Additional observations from a re-analysis of the deposited data

How the results depend on the processing

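The Scd1 difference was -0.71 to -0.62 under the 18 alternatives, and its call held under 17. Not all of these could change it. The difference could not move from -0.663 where only the filter, probe rule, intensity trend, moderation, replicate block or threshold changed. A threshold of 0.1 could not undo the call. The number of members lower, 1 in the main result, was 5 with dim genes left out (Idi1, Cyp51, Msmo1, Scd1 and Scd2), 2 with arrays centred on their medians, 5 with an intensity trend, 9 with array weights, 0 without moderation and 5 at an adjusted p under 0.1. The number higher was 0 throughout. Without 1 array in turn it stayed at 1 lower. For other pathway genes, 1 lower became 2 with dim genes left out or an intensity trend, 4 with array weights, and 0 without moderation, with the mast cell covariate or without both arrays numbered 1, and 0 to 1 without 1 array. The 4 higher became 0 without moderation, 1 with the mast cell covariate (Elovl7), 2 without both arrays numbered 1, and 0 to 2 without 1 array.

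With a replicate block 2 other pathway genes were higher (Acss2 and Fads3), and Scd1 and Gpam still passed. The numbers share no stated origin: same-numbered arrays correlated at 0.268, 0.336 and 0.0282 in their deviations over all genes, and control 3 correlated best with Cre-ERT2 1 (0.0304).

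The sterol enzyme median (-0.13) moved to -0.073 with the mast cell covariate and -0.079 without both arrays numbered 1, and lay at -0.170 to -0.099 without 1 array. The regulator median (-0.14) moved to -0.094 after repeated quantile normalization and -0.083 with the covariate, and lay at -0.150 to -0.090 without 1 array. The fatty acid median (0.01) moved to 0.051 and -0.036 under the same 2 settings. Signs turned only for members that did not pass in either setting. With the covariate Hmgcs1 was at 0.051, Fdft1 at 0.014, Dhcr7 at 0.222, Fasn at -0.017 and Fads1 at -0.015. With array weights Tm7sf2 was at 0.023 and Srebf1 at 0.025. After repeated quantile normalization Srebf1 was at 0.031. Without both arrays numbered 1 Tm7sf2 was at 0.052, Hsd17b7 at 0.025, Dhcr7 at 0.031 and Srebf1 at 0.068. Without 1 array in turn, Tm7sf2 ranged from -0.124 to 0.001, Hsd17b7 from -0.104 to 0.013, Dhcr7 from -0.102 to 0.043, Srebf1 from -0.068 to 0.051 and Srebf2 from -0.004 to 0.095. Over all genes, 159 higher and 223 lower became 364 and 791 with dim genes left out, 366 and 821 with an intensity trend, 763 and 1082 with array weights, 64 and 39 with the covariate, 123 and 43 without both arrays numbered 1, 296 and 285 with the block, 401 and 833 at an adjusted p under 0.1, and 31 to 188 and 18 to 111 without 1 array. The causes were not tested.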

Other observations

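The desaturase cluster around Scd1 and Scd2 also holds Scd3 and Scd4, which were read after the values of Scd1 were seen. Scd3 was at 6.62 ± 0.06 in the controls, against 6.56 ± 0.06 with Cre-ERT2 (SD, n = 3 each), with a limma adjusted p of 0.609. Scd4 was at 6.88 ± 0.07 and 6.80 ± 0.02 (SD, n = 3 each), with a limma adjusted p of 0.543. Both lay near the lower quartile of the arrays (6.46 to 6.55). Fen1, a DNA replication nuclease gene beside Fads1 and likewise chosen afterwards, was at 10.79, 10.70 and 10.65 in the controls against 10.43, 10.52 and 10.41 in Cre-ERT2 arrays. Its difference of -0.26 ± 0.06 (SE; limma adjusted p = 0.0617) ran against the 0.42 of Fads3 in the same cluster.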
